A study of Homo sapiens with 14 samples.

Results

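p53 target genes are genes whose transcription is switched on by the tumour suppressor p53. The set described here has 35 members, found by their symbols in the first column of the 14 count tables, of 54628 symbols in each table. By known role, 5 members feed back on p53 (MDM2, PPM1D, CCNG1, FBXO22, TP53INP1) and 9 act in arrest and growth control (BTG2, GADD45A, PLK2, PLK3, PHLDA3, ZMAT3, GDF15, KITLG, RAP2B). Another 4 act in DNA repair (XPC, DDB2, POLH, RRM2B), 8 in metabolism and redox balance (TIGAR, SESN1, SESN2, FDXR, TP53I3, ACER2, CMBL, SPATA18) and 9 in cell death, autophagy or other processes (FAS, APAF1, AEN, DRAM1, NINJ1, TRIAP1, CYFIP2, SUSD6, TRIM22).

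In dividing cells p53 protein is kept low by MDM2, a ubiquitin ligase that is itself a p53 target. Damage to DNA and other stresses stabilise p53, which then binds a response element of paired half-sites in or near its targets. In fibroblasts p53 is one of the regulators that hold cells in senescence, a lasting arrest of division, largely through the cyclin-dependent kinase inhibitor p21 (CDKN1A).

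Total RNA was sequenced from IMR90, a widely used human lung fibroblast line, grown as 2 isolates at passage 5. Senescence was induced with inflachromene (ICM), an inhibitor of the chromatin proteins HMGB1 and HMGB2, at 10 µM for up to 6 days. There were 2 libraries of untreated cells (WT), 2 of otherwise untreated cells given siRNA against HMGB2 (siHMGB2), and 4 of ICM-treated cells (ICM 1 to 4). A further 2 libraries each came from ICM-treated cells with knockdown of SRRM2 (siSRRM2), BANF1 (siBANF1) or CTCF (siCTCF), 3 proteins of nuclear speckles, the nuclear envelope and chromatin loops. The labels of ICM 3, ICM 4 and siCTCF have another form and other cell line tags than the rest. ICM 1-2 and ICM 3-4 were therefore treated as separate groups, with ICM 1-2 as controls for siSRRM2 and siBANF1 and ICM 3-4 as controls for siCTCF, which gave 7 groups of 2. No group is labelled as given a control siRNA, so transfection and loss of the targeted gene cannot be told apart in any knockdown comparison. The labels do not say which library came from which isolate or from a separate culture, so p-values measure the spread between these libraries, which may be technical.

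Libraries held 22336161 to 58257456 gene counts, and values are gene counts scaled to the library total (counts per 1000000, CPM). HMGB2 mRNA went from 27.7 and 28.0 CPM in WT to 3.18 and 3.52 in siHMGB2. CTCF mRNA was lower but present in siCTCF, with 71.5 and 23.0 CPM against 94.9 and 91.9 in ICM 3-4. BANF1 was not lower in the libraries labelled siBANF1 (16.96 and 36.7 CPM) than in ICM 1-2 (13.5 and 32.7), and SRRM2 was lower in those libraries (59.0 and 17.01) as well as in the libraries labelled siSRRM2 (76.0 and 76.4) than in ICM 1-2 (237.8 and 112.4). The files of these 4 libraries carry names with the opposite knockdown, and the labels are followed here. ICM 1 and siBANF1 1 stood apart from ICM 2 and siBANF1 2, so results that rest on ICM 1-2 or siBANF1 are given by library. Small nuclear, nucleolar and similar short RNAs took 3.19% to 6.05% of counts in ICM 1-2, siSRRM2 and siBANF1 and at most 0.00834% elsewhere. All 10 fibroblast markers were detected in WT, and their summed level was 19660 to 26390 CPM there, 13730 and 4362 in ICM 1 and 2, and 4273 and 2074 in ICM 3 and 4. Summed levels were at most 0.729 CPM for 6 epithelial markers, of which KRT5, SFTPC, SFTPB and NKX2-1 were at 0 in every library, and at most 3.09 for 4 endothelial ones. Among blood markers, CD68, which fibroblasts also express, was at 39.1 to 103.8 CPM, CD14 at most 12.9, CD3E at 0 in every library, and PTPRC at most 0.0894. The proliferation marker MKI67 was at 32.8 and 38.8 CPM in WT and no higher than 1.09 in every ICM-treated library. The part of these differences in the results below was not tested, and in bulk RNA fewer cells of a type and less RNA per cell cannot be told apart.

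Of the 35 members, 28 matched an entry in the RefSeq table of promoter windows (GRCh38.p14, 250 bases before to 50 after the start that defines each window). The windows were searched for the p53 response element, as paired half-sites of 10 bases with at most 3 mismatches in all, a CNNG core in each of them and a spacer of at most 13 bases. The element reads the same on both strands, so a single pass covers them. A match was found in 6 of 28 member windows (21.4%) and in 3479 of 27305 windows in all (12.7%). The matches are printed 5′ to 3′ on the strand of the gene, to show how the paired half-sites look beside genes that moved in different directions, with the half-sites in capitals and the spacer in lower case.
AEN: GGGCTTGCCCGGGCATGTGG
GDF15: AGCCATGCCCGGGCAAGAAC
FDXR: GGGCGGGCCCgggcaggagcGGGCTTGCCC
PLK2: AGACTTGCTTcccGGCCACGCGC
ZMAT3: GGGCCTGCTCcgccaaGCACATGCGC
RAP2B: GGGCATGCTCgccggggagGGGCGGGCCG

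The AEN match lies at chr15:88621306-88621325 (plus strand), with 2 mismatches and no spacer, and the FDXR match at chr17:74872996-74873025 (minus strand), with 2 mismatches and a spacer of 10 bases. GDF15 has its match at chr19:18386186-18386205 (plus strand), PLK2 at chr5:58460196-58460218 (minus), ZMAT3 at chr3:179071867-179071892 (minus) and RAP2B at chr3:153162165-153162193 (plus), each with 3 mismatches. Counted from the RefSeq start that defines each window, the GDF15 match begins at base 29 after it and the other matches before it. For AEN and ZMAT3 that start lies inside the RefSeq span of the gene. The span begins at 88604683 for AEN (plus strand) and at 179072513 for ZMAT3 (minus strand), so these matches lie within it. Other transcripts start elsewhere: in GENCODE v29, 5 of the 6 matches, all but that of RAP2B, overlap the untranslated part of an annotated exon of the gene. A match describes these letters and shows no binding, and a known element in an intron or further away would not be seen in these windows. A single half-site without a mismatch was present in 4 of the 28 member windows (14.3%) and in 6.54% of all windows. These 4 are AEN, FDXR, PLK2 and RAP2B, which are already among the 6 matches. A match with at most 1 mismatch and no spacer was found in 0 of the 28 member windows and in 0.0476% of all windows.

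Across the 7 groups, most members had their lowest mean in a group without ICM (WT or siHMGB2) and their highest in an ICM-treated group. WT had the lowest mean of the 7 groups for 19 of 35 members and siHMGB2 for 9. The highest mean fell in siSRRM2 for 19 members, in ICM 3-4 for 6 and in siCTCF for 6. Most of the 7 groups were ICM-treated, which by layout alone favours a highest mean there. Shares over all genes were not computed for these lowest and highest groups, so these counts describe the members only. Members at more than 2-fold above the WT mean numbered 0 in both siHMGB2 libraries, 6 in ICM 1, 19 in ICM 2, 18 and 23 in ICM 3 and 4, 25 in each siSRRM2 library, 2 and 18 in siBANF1 1 and 2, and 18 and 22 in siCTCF 1 and 2. Over the 13123 genes that averaged 1 CPM or more, the same share was 1.01% and 1.84% in siHMGB2, 9.08% in ICM 1, 19.8% in ICM 2, 19.4% and 22.7% in ICM 3 and 4, 13.9% and 13.5% in siSRRM2, 9.27% and 18.6% in siBANF1 1 and 2, and 19.1% and 23.5% in siCTCF. Members below WT in some or all of the ICM-treated groups included PLK2, KITLG, SUSD6, APAF1, CCNG1, DRAM1 and TRIM22.

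**Figure D1:**
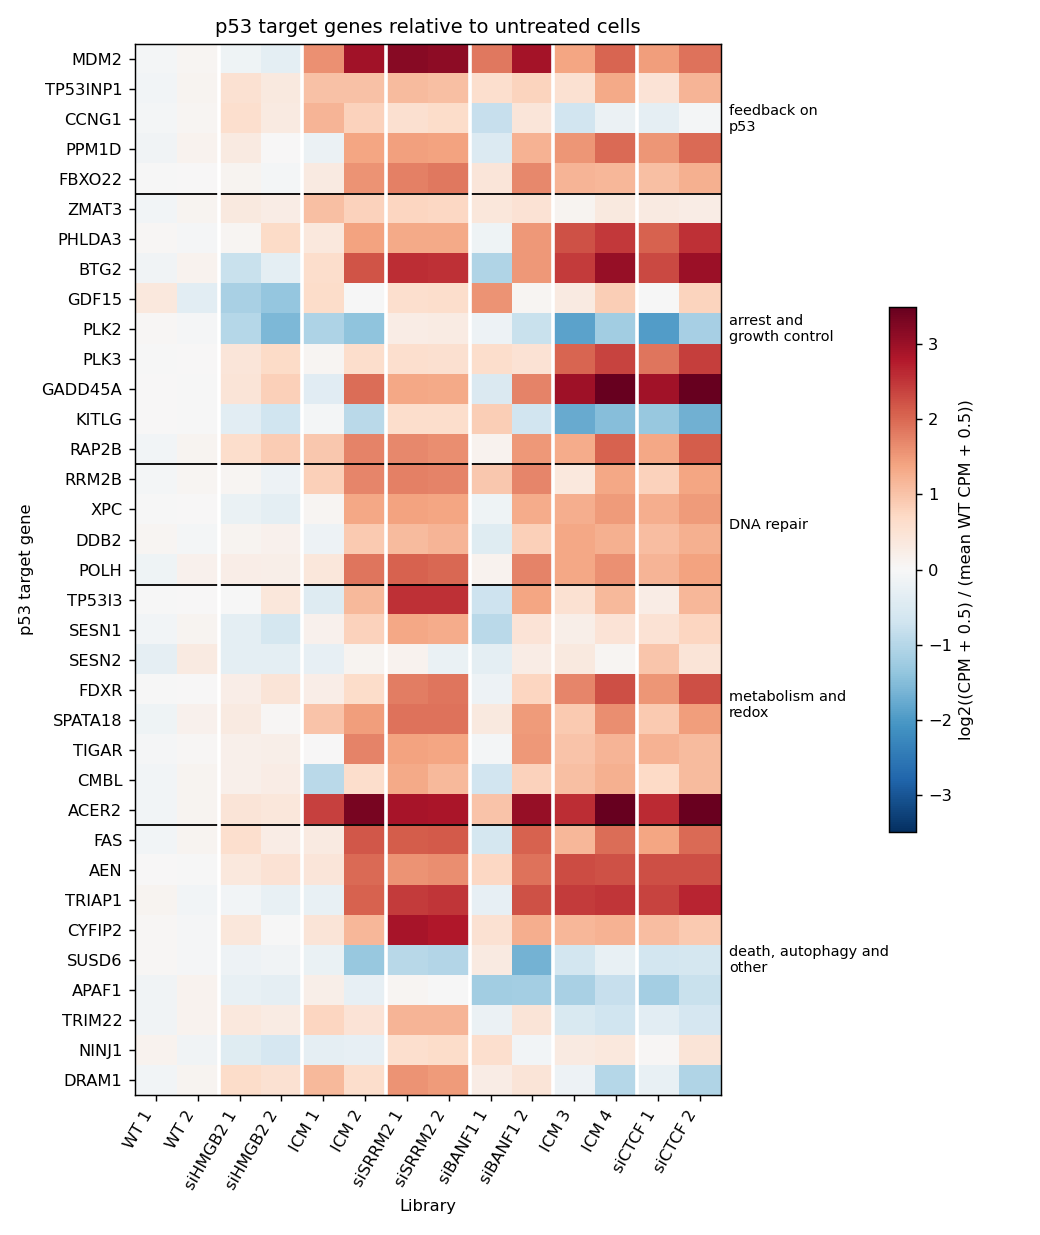
Level of the 35 p53 target genes (rows, by role) in the 14 libraries (columns), as log2 of CPM plus 0.5 over the mean of the WT libraries; red is above WT, blue is below, and colours stop at 3.5 either way. Most rows turn red in ICM 2, siSRRM2, siBANF1 2, ICM 3-4 and siCTCF, while ICM 1 and siBANF1 1 stay pale for many rows.

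Compared per length (CPM per kilobase of annotated exon), the members spanned a wide range. In WT the highest were GDF15, a secreted stress cytokine (237 CPM per kb), and PLK2, a kinase of the centriole cycle (141). Apart from SESN2, the lowest were ACER2, an alkaline ceramidase of the Golgi (1.67 CPM per kb), and CYFIP2, a cytoskeletal regulator (1.88). SESN2, a stress-induced inhibitor of mTORC1 signalling, was near 0 in every library, at most 0.806 CPM in siCTCF 1, and it passed the low-count filter only where siBANF1 was compared with ICM 1-2 and siCTCF with ICM 3-4. In ICM 3-4 the order at the top was GDF15 (352 CPM per kb), PHLDA3, an inhibitor of AKT signalling (157), TRIAP1, a mitochondrial inhibitor of apoptosis (149), and GADD45A, a damage-induced inhibitor of cell-cycle kinases (148). The last 3 do not differ beyond the spread of their libraries.

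ICM 3-4 against WT asked what treatment did in the second set of ICM libraries. Of the 34 members tested, 22 rose and 6 fell at an adjusted p under 0.05 (edgeR's quasi-likelihood test, Benjamini-Hochberg over all genes), against 55.2% of all 15677 genes called, 27.8% higher and 27.3% lower. The median log2 fold change was 1.01 over the members and 0.01 over all genes. The libraries of ICM 3-4 and WT overlapped for only 1 of the 34 members, so a lack of overlap does not set a member apart. Its share over all genes is not given here. WT has no library whose labels have the form of ICM 3-4, so treatment and set cannot be told apart. All 10 fibroblast markers were lower in the same comparison, 9 of them called, with a median of -3.38, and their part in the members' changes was not tested.

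Among the feedback members, 4 rose and 1 fell. MDM2 (chr12:68808172-68850686) was at 134.5 and 149.4 CPM in WT, against 369 and 586 in ICM 3 and 4. Both treated libraries lay above both controls, and MDM2 rose by 1.56 on the log2 scale (SE 0.23, adjusted p = 0.0032). PPM1D, the phosphatase that removes activating phosphates from p53 and its kinases, was at 24.0 and 28.3 CPM in WT, against 76.4 and 104.8 in ICM 3 and 4, and also rose. FBXO22, a ubiquitin ligase subunit, and TP53INP1, a stress-induced regulator of p53 and autophagy, rose by 1.00 and 0.79 on the log2 scale. CCNG1, a cyclin that recruits a phosphatase to MDM2, went the other way and fell by 0.61 on the log2 scale (SE 0.18, adjusted p = 0.0339), from 115.8 and 128.4 CPM to 77.2 and 106.1. That call was lost in a single fit over all 14 libraries (-0.66, adjusted p = 0.142), where 2 of the 5 feedback members were called, both higher.

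Arrest and growth control held both the largest rise and the largest fall of all members in this comparison. In WT, GADD45A (chr1:67685201-67688334) was at 29.5 and 28.7 CPM, against 230.9 and 379.5 in ICM 3 and 4. The arms were far apart, with a rise of 3.20 on the log2 scale (SE 0.26, adjusted p = 0.00062). BTG2 (chr1:203305519-203309602), an antiproliferative cofactor of mRNA decay, was at 24.7 and 29.3 CPM in WT, against 150.3 and 224.8 in ICM 3 and 4, a rise of 2.60 (SE 0.23, adjusted p = 0.00071). PHLDA3 (chr1:201464278-201469188) went from 98.5 and 94.3 CPM to 449.6 and 537.6 and rose by 2.17 (SE 0.16, adjusted p = 0.00059). These 3 genes were at more than 4 times their WT mean in every ICM 3-4 library. PLK3, a stress-responsive kinase, and RAP2B, a small GTPase, also rose, by 2.04 and 1.55 on the log2 scale.

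The called members of this group that fell were KITLG, the ligand of the receptor KIT, and PLK2. KITLG was at 180.4 and 178.4 CPM in WT, against 52.9 and 63.0 in ICM 3 and 4, and fell by 1.82 on the log2 scale. PLK2 (chr5:58453982-58460086) was at 688.8 and 656.2 CPM in WT, against 181.8 and 291.3 in ICM 3 and 4, and fell by 1.70. Both genes were low in both treated libraries. ZMAT3, an RNA-binding regulator of splicing (0.04 on the log2 scale, adjusted p = 0.834), and GDF15 (0.38, adjusted p = 0.312) did not pass the test.

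All 4 DNA repair members were higher in ICM 3-4 than in WT, and 3 passed the test. POLH, the polymerase that copies past ultraviolet damage, rose by 1.30 on the log2 scale, and XPC and DDB2, which recognise lesions for nucleotide excision repair, by 1.21 and 1.13. DDB2 was at 25.2 and 23.0 CPM in WT, against 62.1 and 57.4 in ICM 3 and 4. RRM2B, the p53-induced subunit of ribonucleotide reductase, was at 84.9 and 93.3 CPM in WT, against 115.5 and 227.3 in ICM 3 and 4, libraries that differed widely, and did not pass the threshold (log2 fold change 0.75, adjusted p = 0.0773). In the fit over all 14 libraries none of the 4 was called, with adjusted p of 0.0515 for DDB2, 0.0569 for XPC, 0.0647 for POLH and 0.157 for RRM2B in edgeR. Antisense exons overlap 30.4% of the exon bases of XPC in GENCODE, and the strand setting of the counts is not given in the sources used here.

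Of the 7 metabolic and redox members tested, 6 rose and none fell. ACER2 (chr9:19409009-19452505) was at 3.46 and 4.03 CPM in WT, against 25.0 and 47.9 in ICM 3 and 4. Its arms were apart, and it rose by 3.08 on the log2 scale (SE 0.35, adjusted p = 0.0013). FDXR, the reductase that feeds electrons to mitochondrial cytochromes P450, rose by 1.85 on the log2 scale, SPATA18, a factor of mitochondrial quality control, by 1.14, and CMBL, a hydrolase, by 0.97. TIGAR, which lowers the glycolytic activator fructose-2,6-bisphosphate, rose by 0.91, although 42.6% of its annotated exon bases overlap another gene on the same strand. TP53I3, a quinone oxidoreductase, rose by 0.69, and SESN1, the sestrin expressed here, was at 24.2 and 28.1 CPM in WT and 29.9 and 36.3 in ICM 3 and 4 without passing the test (0.15, adjusted p = 0.508).

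The death, autophagy and other members were divided, with 4 up, 3 down and 2 not called. TRIAP1 (chr12:120443964-120446384) was at 41.0 and 36.2 CPM in WT, against 210.2 and 220.1 in ICM 3 and 4, and rose by 2.29 on the log2 scale (SE 0.16, adjusted p = 0.00054). AEN (chr15:88604683-88632281), an apoptosis-enhancing nuclease, was at 78.9 and 78.0 CPM in WT, against 381.8 and 368.0 in ICM 3 and 4, and rose by 2.07 (SE 0.15, adjusted p = 0.00056). The treated libraries of these genes agree closely with each other. FAS, a death receptor, and CYFIP2 rose by 1.42 and 1.03. APAF1, the scaffold of the apoptosome, fell by 1.16, TRIM22, an interferon-inducible ubiquitin ligase, by 0.81, and SUSD6 by 0.64. DRAM1, a lysosomal membrane protein that promotes autophagy (-0.71, adjusted p = 0.0871), and NINJ1, which ruptures the plasma membrane in lytic death (0.15, adjusted p = 0.469), were not called.

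**Figure D2:**
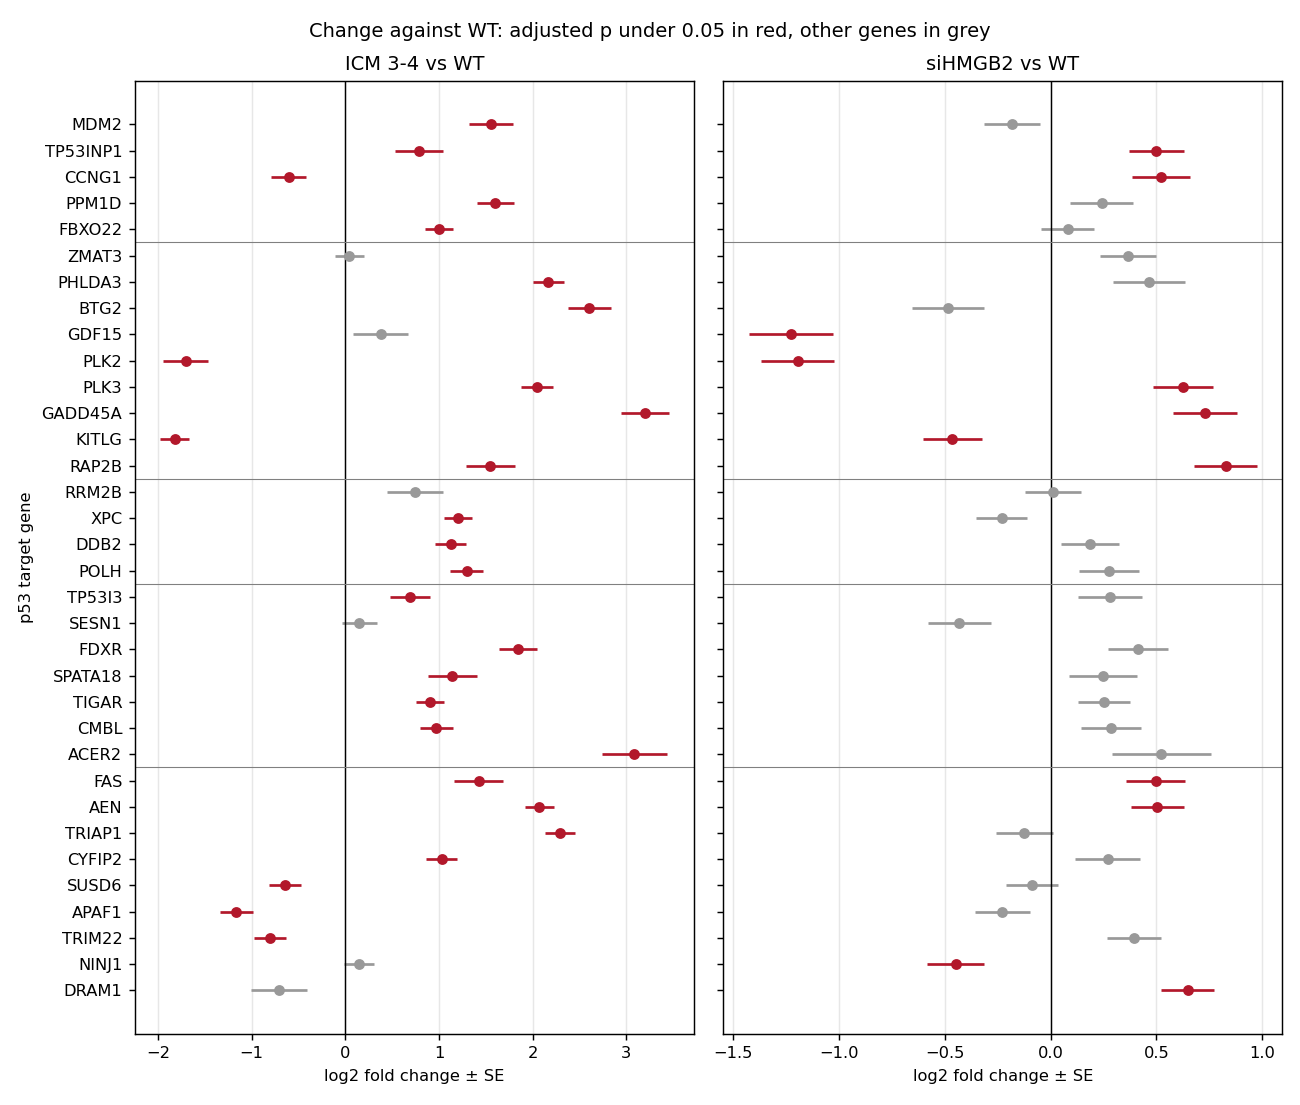
Log2 fold change ± SE of the 34 members tested in ICM 3-4 against WT (left) and siHMGB2 against WT (right), ordered by role as in the heat map, with genes at an adjusted p under 0.05 in red. Both panels share the WT libraries and their horizontal scales differ. In ICM 3-4, 22 members rose and 6 fell; in siHMGB2, 8 rose and 4 fell.

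In a single fit over all 14 libraries, which pools the spread of every group, 17 members were called (13 higher and 4 lower) against 30.3% of genes. By role these were 2 of 5 feedback members, 7 of 9 in arrest, 0 of 4 in repair and 3 of 8 in metabolism. The death, autophagy and other members gave 5 of 9. Without WT 1 or WT 2, 21 and 19 members were called, among 5415 of 16412 and 4697 of 16288 genes.

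ICM 1-2 against WT put the same question to the first set, where some members were above WT in both libraries, many were higher in ICM 2 than in ICM 1, and 4 were below WT in both. No member and no gene was called by edgeR (0% of 16617 genes), with 10 of 34 members and 3664 genes at an unadjusted p under 0.05. DESeq2 called 4 members, ACER2, MDM2 and RAP2B higher and PLK2 lower, among 1917 genes (11.5%). The median log2 fold change was 0.88 over the members and 0.09 over all genes, and over the members it was 0.37 without ICM 2 and 0.98 without ICM 1. Both ICM libraries lay above both WT libraries for 21 members and below both for 4, against 29.6% and 27.6% of all genes.

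MDM2 was at 429.8 CPM in ICM 1 and 1097 in ICM 2, both above its WT libraries (log2 fold change 2.33, SE 0.50, adjusted p = 0.109). ACER2 was at 21.7 and 42.0 CPM in ICM 1 and 2 against 3.46 and 4.03 in WT (3.01, SE 0.40, adjusted p = 0.0843). BTG2 was at 41.2 and 126.0 CPM in ICM 1 and 2, with a log2 fold change of 1.53 (SE 0.52, adjusted p = 0.193). For these 3 genes the lower ICM library was already above both controls, as the rule that named them requires. PLK2 was low in both, at 314.8 and 250.8 CPM against 656.2 and 688.8 in WT (-1.28, SE 0.37, adjusted p = 0.151). SUSD6 (-0.68, SE 0.49, adjusted p = 0.47) and KITLG (-0.45, SE 0.45, adjusted p = 0.589) were below WT mainly through ICM 2, at 36.6 and 92.2 CPM there against 78.5 and 172.0 in ICM 1.

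In ICM 1, 23 of 35 members (65.7%) were above both WT libraries, against 40.6% of genes averaging 1 CPM or more. They included 4 of the 5 feedback genes. CCNG1 was at 277.8 CPM in ICM 1 and 214.8 in ICM 2 against 115.8 and 128.4 in WT, and TP53INP1 was at 117.7 and 118.1 against 54.3 and 61.0. ZMAT3 was at 307.1 and 262.7 CPM against 140.1 and 158.6, and RRM2B at 159.2 and 290.8 against 84.9 and 93.3. CCNG1 and ZMAT3 were thus higher in ICM 1 than in ICM 2 and TP53INP1 was nearly equal in both, while RRM2B in ICM 1 lay between WT and ICM 2.

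In 9 members given next as examples, ICM 1 was near or below WT and ICM 2 was above both WT libraries. Of these, TRIAP1, GADD45A, DDB2, PPM1D and TP53I3 were below both WT libraries in ICM 1, and XPC, POLH and FAS somewhat above both. CMBL, outside these examples, was also below both, at 9.73 CPM in ICM 1 and 29.9 in ICM 2 against 17.9 and 20.5 in WT. TRIAP1 was at 32.2 CPM in ICM 1 and at 161.9 in ICM 2, and GADD45A was at 21.9 and 113.7. Among the DNA repair genes XPC was at 86.8 and 213.5 CPM, POLH at 41.6 and 115.6 and DDB2 at 21.1 and 46.2. PPM1D was at 22.6 and 68.7 CPM, TIGAR at 50.2 and 167.6, TP53I3 at 26.4 and 80.6 and FAS at 66.6 and 245.1. Feedback, arrest, repair, metabolic and death genes are all found among these 9. ICM 2 was more than 2-fold above ICM 1 for 15 of the 34 members other than SESN2, with a median ratio of 1.78, against 21.7% and 1.18 over all 13123 genes. ICM 1 had 6.05% of counts in short RNAs, 35.2% of reads given to no gene and 0.454% of counts in mitochondrial mRNA, and ICM 2 had 3.19%, 26.5% and 0.0677%. Their part in the difference between these libraries was not tested.

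**Figure D3:**
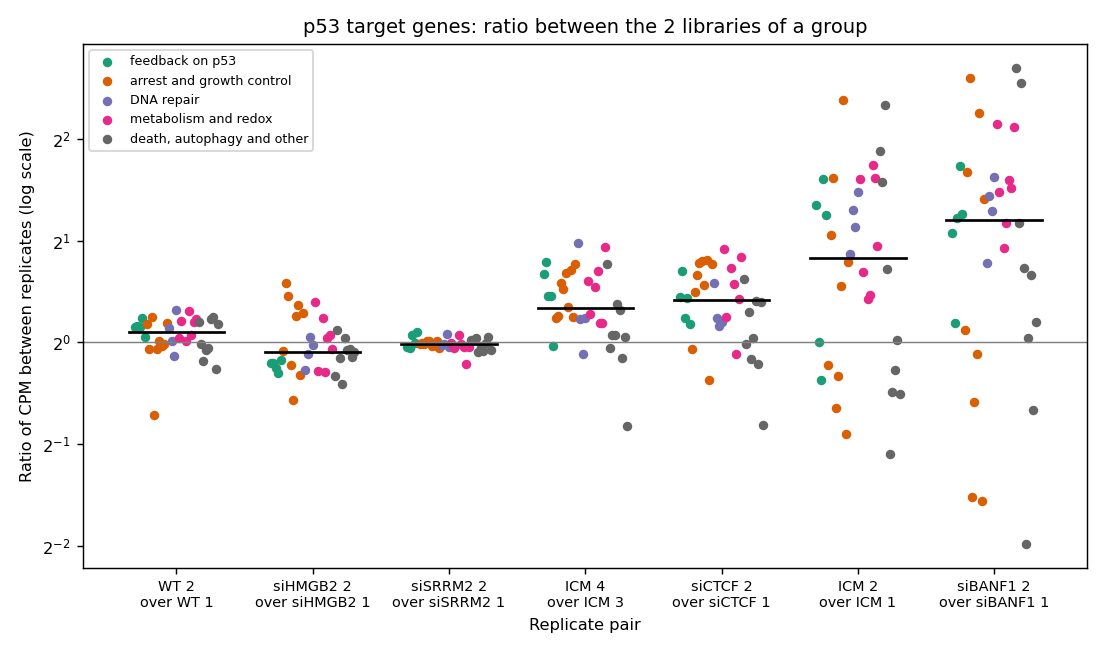
Ratio of the higher-numbered to the lower-numbered library of each group (log scale) for the 34 members other than SESN2, coloured by role, with a bar at the median. The pairs ICM 2 over ICM 1 and siBANF1 2 over siBANF1 1 spread widely, with medians of 1.78 and 2.3, and none of these 34 passed 2-fold either way in the other 5 pairs.

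Without ICM 1, 32 of 35 members were called against WT (27 higher and 5 lower, 10738 of 17290 genes in all), and without ICM 2, 21 were called (18 higher and 3 lower, 8389 of 17519 genes), with the lone ICM library assumed to vary as the WT libraries do. Without WT 1 or WT 2 no member was called, and with the spread of all 14 libraries 5 were called, MDM2, ACER2, TP53INP1 and ZMAT3 higher and PLK2 lower, against 13.5% of genes.

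The difference between the ICM groups was tested directly, since both comparisons above share the WT libraries. None of 34 members was called by edgeR in ICM 3-4 against ICM 1-2, where 0.84% of 16195 genes were, with 9 members at an unadjusted p under 0.05 and 6 members called by DESeq2, which called 14.1% of genes. GADD45A was at 230.9 and 379.5 CPM in ICM 3 and 4 against 21.9 and 113.7 in ICM 1 and 2 (log2 fold change 2.08, SE 0.72, adjusted p = 0.143). PLK3 was at 109.6 and 138.9 against 28.0 and 41.0 CPM (1.70, SE 0.39, adjusted p = 0.0768), and FDXR at 78.3 and 114.2 against 27.5 and 36.9 (1.42, SE 0.40, adjusted p = 0.097). These 3 genes were named from members whose groups did not overlap, so their position above both ICM 1-2 libraries follows from that choice. On the other side, CCNG1 was at 77.2 and 106.1 CPM in ICM 3 and 4 against 277.8 and 214.8 in ICM 1 and 2 (-1.61, SE 0.44, adjusted p = 0.0942). DRAM1 was at 70.7 and 40.0 against 175.7 and 123.7 CPM (-1.61, SE 0.49, adjusted p = 0.115), and TRIM22 at 46.6 and 41.9 against 114.7 and 94.99 (-1.42, SE 0.40, adjusted p = 0.1). The same rule named these 3 genes, so their lack of overlap was also fixed by the choice. The groups overlapped for MDM2, which is always given (-0.80, SE 0.54, adjusted p = 0.405). In the fit over all 14 libraries 7 members were called (2 higher, PLK3 and FDXR, and 5 lower, CCNG1, DRAM1, TRIM22, APAF1 and ZMAT3), against 19.5% of genes, and edgeR called 19 without ICM 2 (6594 of 16944 genes), 2 without ICM 1 (1128 of 16016) and 0 without ICM 3 or ICM 4 (533 of 18635 and 360 of 18521). Total-count scaling moved the median of all genes from -0.08 to 0.07 here and from 0.01 to 0.20 in ICM 3-4 against WT.

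**Figure D4:**
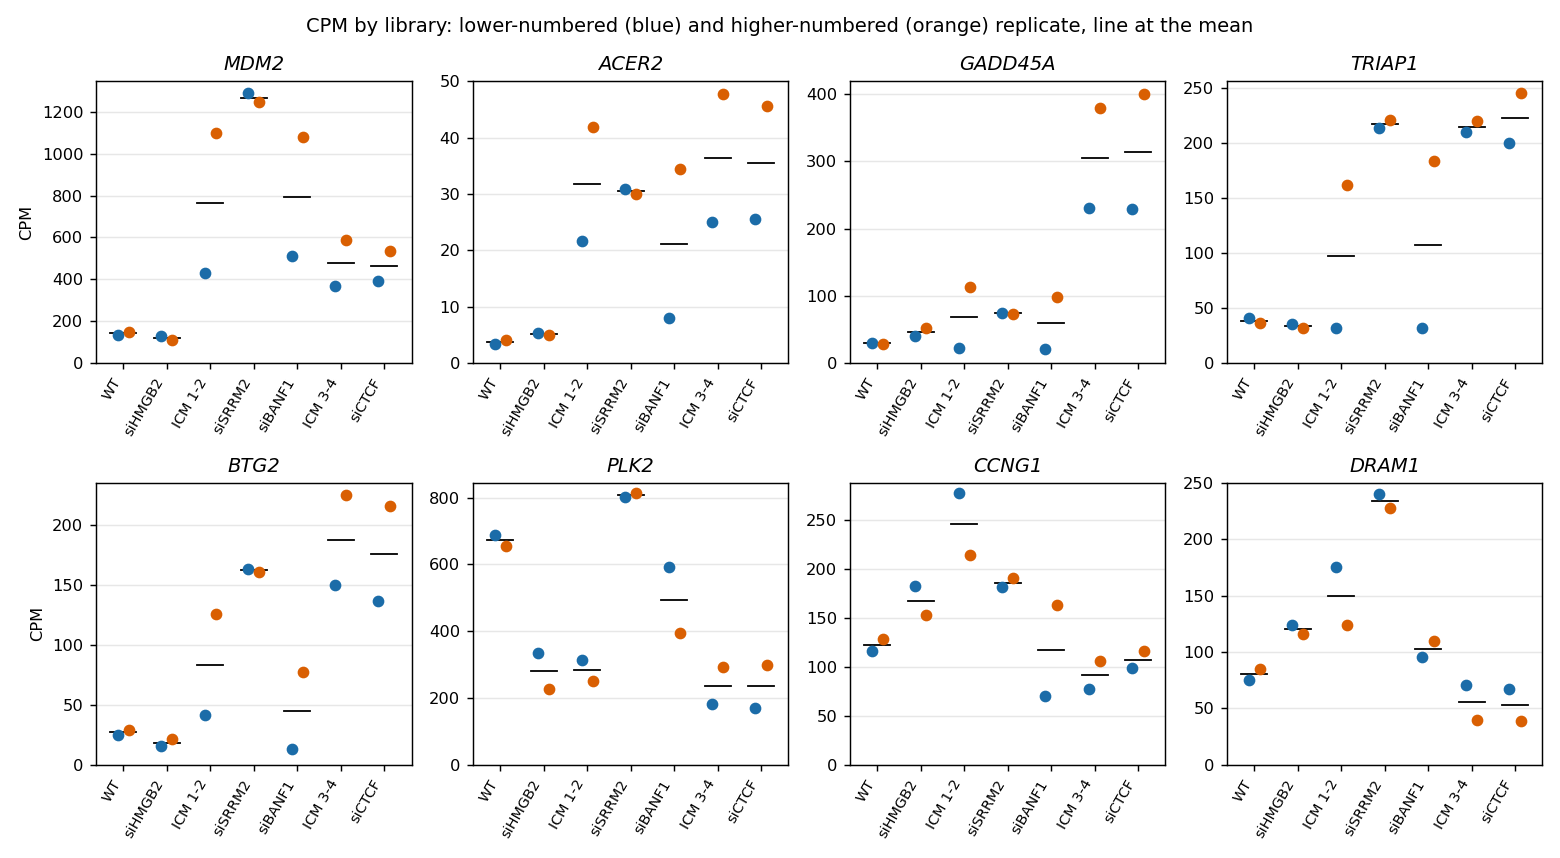
CPM of 8 members in each library (points; blue for the lower-numbered and orange for the higher-numbered library) with a line at the mean of each group, on linear axes from 0. MDM2 and ACER2 exceed WT in every ICM-treated library, GADD45A and TRIAP1 are near WT in ICM 1 and siBANF1 1, and CCNG1 and DRAM1 are lower in ICM 3-4 than in ICM 1-2.

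HMGB2 knockdown in untreated cells asked what siRNA against HMGB2 did without ICM, where transfection and loss of HMGB2 cannot be told apart. Of 34 members, 8 rose and 4 fell, against 10.9% of 15338 genes called (6.14% higher and 4.74% lower). The rises were small, with none above 0.83 on the log2 scale, and the largest changes were falls. The median was 0.26 over the members and 0.00 over all genes. The libraries of siHMGB2 and WT overlapped for only 6 of the 34 members, so here too a lack of overlap does not set a member apart. Its share over all genes is not given here.

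GDF15 (chr19:18386158-18389176) was at 614.3 and 374.2 CPM in WT, against 217.4 and 186.1 in siHMGB2, and fell by 1.23 on the log2 scale (SE 0.20, adjusted p = 0.0013). PLK2 was at 688.8 and 656.2 CPM in WT, against 335.4 and 227.3 in siHMGB2, and fell by 1.20 (SE 0.17, adjusted p = 0.00059). Neither gene overlapped between the groups, but the GDF15 libraries of WT were themselves far apart. KITLG and NINJ1 also fell, by 0.46 and 0.45. PLK2 and KITLG were also called lower in ICM 3-4, a comparison that shares the WT libraries.

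RAP2B was at 21.9 and 24.9 CPM in WT, against 35.7 and 43.5 in siHMGB2, the largest rise (0.83, SE 0.15, adjusted p = 0.0025). GADD45A went from 29.5 and 28.7 CPM to 40.2 and 52.0 (0.73, SE 0.15, adjusted p = 0.0061). DRAM1, from 75.5 and 84.9 to 124.1 and 116.1 CPM, rose by 0.65 (SE 0.13, adjusted p = 0.0047), and PLK3, from 26.4 and 26.5 to 35.6 and 42.5, by 0.63 (SE 0.14, adjusted p = 0.0106). These 4 genes were higher in both knockdown libraries than in both controls. AEN, FAS, CCNG1 and TP53INP1 rose by 0.50 to 0.52. MDM2 did not pass the test and was slightly lower, at 128.0 and 111.1 CPM against 134.5 and 149.4 (-0.18, SE 0.13, adjusted p = 0.448). None of the 4 DNA repair members and none of the 7 metabolic members tested was called, where 10.9% of all genes were.

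In the fit over all 14 libraries no member and no gene was called, with 3 members and 908 genes at an unadjusted p under 0.05, and without WT 1 or WT 2 edgeR called 4 and 6 members, among 815 of 16202 and 1283 of 16121 genes. PLK3 lost its call without WT 1, WT 2 or siHMGB2 2 (adjusted p = 0.0793, 0.0533 and 0.0622) and DRAM1 without WT 1 (adjusted p = 0.101). Scaling by total counts gave 7 members higher and 6 lower, and 786 genes higher and 999 lower in all, where TMM gave 941 and 727.

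The libraries labelled siSRRM2 held the highest level of most members, and 30 of 34 were higher than in ICM 1-2. No member and no gene was called by edgeR (0% of 16828 genes), with 7 members and 1488 genes at an unadjusted p under 0.05, while DESeq2 called 3 members, TP53I3, CYFIP2 and PLK2, among 206 genes (1.22%). The median was 0.63 over the members and -0.07 over all genes, and over the members it was 0.29 without ICM 1 and 1.16 without ICM 2. Both siSRRM2 libraries were above both ICM 1-2 libraries for 21 members and below both for 2, against 22.2% and 20.8% of all genes.

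TP53I3 was at 214.7 and 214.5 CPM in siSRRM2 against 26.4 and 80.6 in ICM 1 and 2 (log2 fold change 2.03, SE 0.55, adjusted p = 0.551). CYFIP2 was at 149.6 and 140.3 CPM against 27.1 and 44.6 (2.02, SE 0.29, adjusted p = 0.551), and PLK2 at 802.5 and 812.7 against 314.8 and 250.8 (1.49, SE 0.31, adjusted p = 0.551). For all 3 genes siSRRM2 had the highest mean of the 7 groups. MDM2 was at 1288 and 1248 CPM, above 429.8 and 1097 in ICM 1-2 (0.75, SE 0.48, adjusted p = 0.662). CCNG1 (-0.43, SE 0.29, adjusted p = 0.674) and ZMAT3 (-0.22, SE 0.27, adjusted p = 0.81) were the members below both ICM 1-2 libraries, at 181.8 and 190.5 and at 249.4 and 246.5 CPM.

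All 4 repair genes were above both ICM 1-2 libraries in siSRRM2. POLH was at 131.1 and 127.3 CPM, against 41.6 and 115.6 in ICM 1 and 2, and XPC was at 220.6 and 218.6, against 86.8 and 213.5. For these genes the margin over ICM 2 was small and that over ICM 1 large. PLK2 and KITLG, low in ICM 3-4, were at or above their WT level in siSRRM2, with KITLG at 272.4 and 274.1 CPM against 180.4 and 178.4 in WT. The siSRRM2 libraries differed little from each other, with ratios of 0.862 to 1.07 over the 34 members other than SESN2. Without ICM 1, 27 members were called (22 higher and 5 lower, 10386 of 17578 genes in all), and without ICM 2, 32 were called (28 higher and 4 lower, 12350 of 18219 genes), with the lone ICM library assumed to vary as the siSRRM2 libraries do.

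The libraries labelled siBANF1 differed from each other as ICM 1 and ICM 2 did, and no member was called against ICM 1-2. edgeR and DESeq2 each called 0 of 35 members and 0 genes (0% of 17616 genes), with 1 member and 24 genes at an unadjusted p under 0.05 in edgeR. That fit leaves out the correlation of same-numbered libraries (0.854 over all genes). With a replicate block in edgeR, 9 members and 1400 genes had an unadjusted p under 0.05, and 0 members and 1 gene were called. The libraries of the groups overlapped for 27 of 35 members, where 13.8% of all genes did not overlap, and the median was -0.10 over the members and 0.01 over all genes. The members' median ranged from -0.82 (without siBANF1 2) to 0.46 (without ICM 2) as single libraries were left out. In siBANF1 2 over siBANF1 1, 20 of the 34 members other than SESN2 were more than 2-fold higher, with a median of 2.3, against 22.9% and 1.18 over all genes.

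TRIAP1 was at 31.4 CPM in siBANF1 1 and 183.5 in siBANF1 2, and GADD45A at 20.5 and 98.2, close to ICM 1 and ICM 2 in turn. MDM2 was at 511.1 and 1079 CPM (0.08, SE 0.68, adjusted p = 1). BTG2 was at 12.7 CPM in siBANF1 1, below both WT libraries, and at 77.2 in siBANF1 2. GDF15 went the other way, at 1427 CPM in siBANF1 1, its highest value in any library, and 498.5 in siBANF1 2.

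Among the members whose libraries did not overlap, CCNG1 was at 70.1 and 163.6 CPM in siBANF1 against 277.8 and 214.8 in ICM 1-2 (-1.11, SE 0.58, adjusted p = 1). APAF1 was at 24.6 and 25.3 CPM against 66.5 and 47.4 (-1.20, SE 0.45, adjusted p = 1), and DRAM1 at 95.5 and 109.5 against 175.7 and 123.7 (-0.56, SE 0.46, adjusted p = 1). These 3 were lower in both siBANF1 libraries. PLK2 was at 593.6 and 395.2 CPM against 314.8 and 250.8 (0.81, SE 0.53, adjusted p = 1), and NINJ1 at 145.7 and 91.8 against 78.4 and 80.2 (0.60, SE 0.47, adjusted p = 1). No gene among these passed the test.

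CTCF knockdown left the members at values that overlapped with ICM 3-4. edgeR and DESeq2 each called 0 of 35 members and 0 genes (0% of 14704 genes), with 0 members and 18 genes at an unadjusted p under 0.05 in edgeR, and the libraries overlapped for 32 of 35 members, where 15.8% of all genes did not overlap. Here too that fit leaves out the correlation of same-numbered libraries (0.805). With a replicate block in edgeR, 4 members and 711 genes had an unadjusted p under 0.05, and 0 members and 4 genes were called. The median was -0.02 over the members and 0.00 over all genes, and the members' median ranged from -0.18 to 0.15 as single libraries were left out. MDM2 was at 391.4 and 533.4 CPM in siCTCF against 369.4 and 585.5 in ICM 3 and 4 (-0.03, SE 0.25, adjusted p = 1). GADD45A was at 228.8 and 400.6 CPM against 230.9 and 379.5, and TRIAP1 at 199.9 and 245.8 against 210.2 and 220.1. For these genes the lower and the higher library of each group had nearly equal values. SESN1 was the member above 10 CPM whose siCTCF libraries both lay higher, at 37.6 and 44.6 against 29.9 and 36.3 CPM (0.32, SE 0.18, adjusted p = 1), and CYFIP2 the one that lay lower, at 42.0 and 37.5 against 44.8 and 46.9 (-0.19, SE 0.18, adjusted p = 1). A p that misses the threshold does not show equal levels, and CTCF itself was lowered far less in siCTCF 1 than in siCTCF 2.

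CDKN1A, the best known p53 target, is no member, and it was far higher in ICM 2 than in ICM 1. It was at 1186 and 1225 CPM in WT, 1281 and 1468 in siHMGB2, 1529 in ICM 1 and 6974 in ICM 2. Its level was 9957 and 10320 CPM in siSRRM2, 1520 and 7743 in siBANF1 1 and 2, 10800 and 13080 in ICM 3 and 4, and 9606 and 13420 in siCTCF. It rose by 3.12 on the log2 scale in ICM 3-4 against WT (SE 0.21, adjusted p = 0.00053).

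MDM4, a partner of MDM2 that also restrains p53, was at 19.3 and 22.2 CPM in WT, 19.2 and 17.03 in siHMGB2, 36.2 and 31.9 in ICM 1-2, 18.7 and 24.9 in ICM 3-4, 22.1 and 21.5 in siSRRM2, 34.9 and 24.4 in siBANF1, and 17.9 and 22.4 in siCTCF.

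Of 30 further p53 targets, 27 were tested in ICM 3-4 against WT, where 16 rose and 4 fell, with a median of 0.97. Of all genes, 27.8% were called higher and 27.3% lower there. Besides CDKN1A, the largest changes were in TNFAIP8, a regulator of cell death that fell by 4.02 on the log2 scale, E2F7, a transcriptional repressor of cell-cycle genes that rose by 2.14, and ABHD4, a lipid hydrolase that rose by 1.89. Of 23 regulators of p53, 21 were tested, and 6 rose and 4 fell (10 of 21 called, against 55.2% of all genes), with a median of -0.12. The largest changes were rises of PPP1R13B, a cofactor of p53 at apoptotic genes (2.78), of the acetyltransferases EP300 (1.71) and CREBBP (1.68) and of the deacetylase SIRT1 (1.33). In siHMGB2 against WT, 4 of 27 further targets rose and 2 fell, and among 21 regulators the kinase CHEK2 alone was called and fell by 0.83. The shares called were 22.2% of the further targets and 4.76% of the regulators, against 10.9% of all genes. In ICM 3-4 against ICM 1-2, ABHD4 was called higher, and no other gene of these lists was called in the other comparisons by edgeR.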

How the data were processed

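The authors deposited whole-number read counts per gene symbol, 1 table per library, with replicates not pooled. The submitters' processing notes name STAR 2.7.3a, HTSeq 0.12.4, DESeq2 1.36.0 and hg38 and give no roles. The annotation release and the strand setting are not given in the sources used here. The 5 lines for reads assigned to no gene (12.8% to 41.8% of a library) were left out.

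Counts of the compared libraries alone were filtered with filterByExpr, TMM-scaled and fitted in edgeR 4.0.16 (R 4.3.3) with its quasi-likelihood test, 2 libraries against 2, with Benjamini-Hochberg adjustment over all genes tested and a threshold of 0.05. CPM, and with it whether libraries overlapped, used library totals, and log2 CPM ratios a pseudocount of 0.5. Group means and replicate ratios leave out no library. Alternatives were other scalings, no filter, DESeq2 1.42.0, a fit over all libraries, a replicate block and leaving out each library. The test was also run on simulated data, with a single run per comparison and no effect shared by same-numbered libraries. It therefore does not show error rates where such effects exist.

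The members, the gene lists and the role of each member were chosen with earlier results of these data known. Full statistics are given for the called members, at most 6 by absolute change. Where fewer than 3 were called, they are given for the 3 highest and the 3 lowest members at or above 10 CPM whose libraries do not overlap, and MDM2 is always given. Of the pathway lists, CDKN1A, MDM4 and at most 4 called genes per list were named, and a gene that the rule also selects is not reported here. Other members appear with values chosen after they were seen. Gene coordinates and promoter windows are from RefSeq (GRCh38.p14), and exon lengths and overlaps from GENCODE v29.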

Additional observations from a re-analysis of the deposited data

Results flagged for a closer look

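For 4 members the ICM groups lay on opposite sides of WT: both ICM 1-2 libraries were on one side of both WT libraries and both ICM 3-4 libraries on the other. The same pattern was seen in 1277 of the 13123 genes that averaged 1 CPM or more (9.73%), against 4 of 34 members (11.8%). These shares are close, so the pattern does not set the members apart from other genes. The test of that difference, ICM 3-4 against ICM 1-2 in edgeR, passed the threshold for none of them. CCNG1 was above WT in ICM 1-2 and below it in ICM 3-4, with a difference of -1.61 on the log2 scale (SE 0.44, adjusted p = 0.0942). TRIM22 had the same pattern, with -1.42 (SE 0.40, adjusted p = 0.1), and so did DRAM1, with -1.61 (SE 0.49, adjusted p = 0.115). NINJ1 had the opposite one, below WT in ICM 1-2 and above it in ICM 3-4, with 0.47 (SE 0.37, adjusted p = 0.477). Sides of WT were taken on CPM by library totals, whereas the tests used TMM scaling. NINJ1 was at 120.6 and 125.4 CPM in ICM 3 and 4 against 106.4 and 88.7 in WT. That change did not pass the edgeR test (0.15, adjusted p = 0.469). The treatment label is the same in both ICM groups, and the set and any difference in culture cannot be told apart.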

How the results depend on the processing

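Across the alternatives of the 42 named values, 333 of 406 kept their direction and their side of the threshold, 59 passed it where the main value did not, 10 no longer passed it and 4 changed direction. Most named values were not called, and those count as kept where they stayed uncalled. The 333 therefore do not measure how stable the calls were, and all 10 losses fall among called values. The 4 that changed direction concern MDM2, whose value ranged from -0.50 to 0.82 in siBANF1 against ICM 1-2 and from -0.30 to 0.30 in siCTCF against ICM 3-4 as single libraries were left out (negative without ICM 1 (-0.42) or siBANF1 2 (-0.50) in the first, positive without ICM 4 (0.30) or siCTCF 1 (0.13) in the second). In ICM 1-2 against WT, where the main counts are 0 members and 0 genes, relative log expression called 18 genes and total counts 26. Without a low-count filter the counts were 9 members and 2658 genes, with DESeq2 4 and 1917, in the fit over all libraries 5 and 2582, and with a replicate block 2 and 1183. In ICM 3-4 against WT the fit over all libraries called 17 members, and in siHMGB2 against WT it called 0 members and 0 genes. In siSRRM2 against ICM 1-2, DESeq2 called 3 members and 206 genes, the fit over all libraries 1 and 34, and the replicate block 34 genes. In siBANF1 against ICM 1-2, 7 genes were called with no filter and 1 with the block, and in siCTCF against ICM 3-4, 4 with the block. In ICM 3-4 against ICM 1-2, total counts called 529 genes, no filter 5 members and 2809 genes, DESeq2 6 and 2291, and the fit over all libraries 7 and 3738. The cause was not tested.

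Leaving out single libraries moved the counts in ICM 1-2 against WT to between 0 and 32 members and between 320 and 10738 genes. The ranges were 4697 to 10617 genes in ICM 3-4 against WT, 4 to 13 members and 815 to 2102 genes in siHMGB2 against WT, 0 to 32 members and 2 to 12350 genes in siSRRM2 against ICM 1-2, and 0 to 11 genes in siBANF1 against ICM 1-2. In ICM 3-4 against ICM 1-2 they were 0 to 19 members and 360 to 6594 genes.

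Replicate numbers gave only 2 pairs and count as shared numbers, not as pairing. Deviations of same-numbered libraries correlated over 13123 genes at 0.215 for WT and siHMGB2, -0.18 for WT and ICM 1-2, 0.0523 for ICM 1-2 and siSRRM2, 0.854 for ICM 1-2 and siBANF1 and 0.805 for ICM 3-4 and siCTCF. With the block 16 members and 2443 genes were called in siHMGB2 against WT. A crossed replicate block in ICM 1-2 against WT, chosen after seeing the data, called 2 members and 1071 genes. No block could be fitted to ICM 3-4 against WT or against ICM 1-2, which share no numbers. SESN2 was near 0 and was not tested in 5 of the 7 comparisons.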
